A study of Mus musculus with 30 samples.

Results

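The p38 MAP kinase pathway genes are 10 genes taken by name from the count table: the p38 isoforms Mapk14 (p38α), Mapk11 (p38β), Mapk12 (p38γ) and Mapk13 (p38δ), their activating kinases Map2k3 (MKK3) and Map2k6 (MKK6), and the kinases that p38 phosphorylates, Mapkapk2 (MK2), Mapkapk3 (MK3), Rps6ka4 (MSK2) and Rps6ka5 (MSK1). All 10 were among the 55487 genes of the table, and 9 were among the 15907 genes with enough counts for a test. Mapk13 was left out by the filter on low counts. RNA was measured in 30 libraries of wild-type C2C12 myotubes, which form by fusion from a mouse myoblast line. All cultures were differentiated for 4 days in 2% horse serum and then kept for 4 more days, to a total of 8 days. The 5 groups had 6 replicates each: 2% horse serum throughout (2% HS), no serum, or serum deprivation (SD), SD with 100 nM metformin (MET), SD with 500 nM leucine (LEU), and SD with 100 nM metformin and 500 nM leucine (MET+LEU). The labels do not say whether replicates were separate cultures, so p-values measure only the spread between these libraries.

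p38 kinases are switched on when MKK3 or MKK6 phosphorylates the threonine and the tyrosine of a Thr-Gly-Tyr motif in the activation loop. They respond to stress and cytokines, and they pass the signal on through MK2 and MK3, which act on mRNA stability and the small heat shock protein Hspb1, and through MSK1 and MSK2, which phosphorylate Creb1 and histone H3 in the nucleus. In muscle, p38 activity is needed for myoblasts to leave the cell cycle and fuse, since it acts on the myogenic factors of the MEF2 and E-protein families, and p38γ is known for its high level in skeletal muscle. RNA counts report transcript levels and carry no information on phosphorylation.

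The stretch around the activation motif is shown for the 4 isoforms because it is the site at which the kinases above act, and because it shows how far the isoforms differ in the letters that sequencing reads must tell apart. Each line gives 33 bases of coding sequence in GRCm38, read 5′ to 3′ on the coding strand from GENCODE M21 gene models, with the Thr-Gly-Tyr codons in capitals. Each stretch lies within 1 exon. The Mapk11 stretch is at chr15:89145854-89145886 and the Mapk12 stretch at chr15:89134664-89134696, both on the minus strand. The Mapk13 stretch is at chr17:28776332-28776364 and the Mapk14 stretch at chr17:28728387-28728419, both on the plus strand.
Mapk11: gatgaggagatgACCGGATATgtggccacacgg
Mapk12: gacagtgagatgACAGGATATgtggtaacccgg
Mapk13: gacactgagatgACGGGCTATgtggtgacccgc
Mapk14: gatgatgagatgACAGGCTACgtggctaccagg
The threonine codon was number 180 in Mapk11, Mapk13 and Mapk14 and number 183 in Mapk12. Over the whole coding sequence, pairs of isoforms were identical at between 64.8% (Mapk13 and Mapk14) and 70.1% (Mapk12 and Mapk13) of aligned bases. The longest identical run between any isoform pair was 20 bases. Map2k3 and Map2k6 were 71.8% identical with a longest run of 23 bases, Mapkapk2 and Mapkapk3 70.4% with 27 bases, and Rps6ka4 and Rps6ka5 66.2% with 21 bases. The reads were 150 bases long at each end, so no untrimmed coding read could match 2 members of a pair over its full length.

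The isoform genes lie in neighbouring pairs. Mapk11 (chr15:89142486-89149628) and Mapk12 (chr15:89130584-89140703) are on the same strand, 1782 bases apart, and Mapk14 (chr17:28691329-28748406) and Mapk13 (chr17:28769297-28780233) are on the same strand, 20890 bases apart. The neighbours were nonetheless far apart in level. Per kilobase of merged exons, Mapk14 had 12.3 CPM (counts per 1000000, TMM scaled) ± 0.863 (SD, n = 30) and Mapk12 had 11.2 ± 1.36. Mapk11 stood at 1.89 ± 0.299 CPM per kilobase and Mapk13 at 0.0443 ± 0.0374. Mapk13 had between 0 and 7 counts per library, 0 in 7 libraries and more than 3 in 7 libraries. A count of 0 allows up to 3 counts, or 0.153 to 0.235 CPM in these libraries, so differences between groups were not detectable for Mapk13 at this depth.

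The other kinases showed the same uneven split within pairs. Mapkapk2 had the highest level of the 10 genes, with 43.8 CPM per kilobase ± 4.12 (SD, n = 30), against 0.425 ± 0.105 for Mapkapk3. Map2k3 had 22.9 ± 2.40 CPM per kilobase, and Map2k6 0.462 ± 0.109. Rps6ka4 had 6.53 ± 0.539 CPM per kilobase and Rps6ka5 1.14 ± 0.258. In the order of levels, the ranges over the 30 libraries overlapped for Mapk14 and Mapk12, for Mapk11 and Rps6ka5, and for Map2k6 and Mapkapk3. Within groups, Map2k6 and Mapkapk3 overlapped in each of the 5. Mapk14 and Mapk12 overlapped in LEU and MET+LEU, but Mapk12 was above Mapk14 in 2% HS and below it in SD and MET. Mapk11 and Rps6ka5 overlapped in 2% HS, and in the 4 groups without serum Mapk11 was the higher, with 1.56 to 2.44 against 0.862 to 1.13 CPM per kilobase in SD. These orders hold for merged exons as the length. Rps6ka5 has 11932 bases of merged exons and a longest transcript of 5642, Mapk11 2887 and 2615, so their order may depend on the length used. With the longest transcript Mapk12 led Mapk14 in SD (53.0% against 41.5% of p38 transcripts) and in MET (54.7% against 39.8%). Map2k6 was counted at 14 to 40 reads per library and Mapkapk3 at 17 to 66, so their fold changes have the widest errors. Rps6ka4 shares 654 exon bases with the transcript CAAA01066123.1 on the same strand, and Rps6ka5 shares 179 with Gm49703. Reads on those bases are uncertain.

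**Figure D1:**
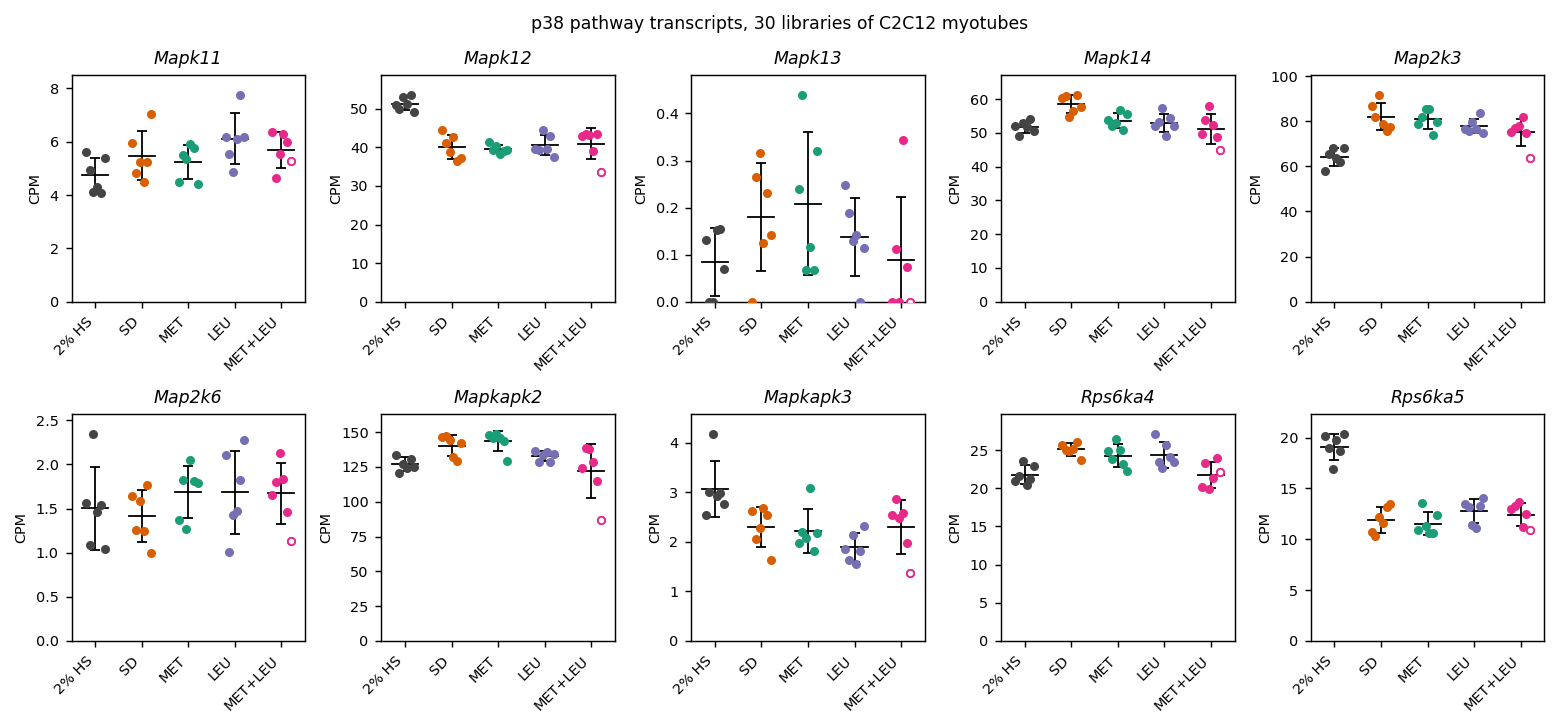
Level of each of the 10 genes in CPM (TMM scaled, axis from 0) in each library of the 5 groups, with the mean (line) and SD (bar) over 6 libraries; the open point is MET+LEU replicate 6. Mapk12 and Rps6ka5 in 2% HS sit above all other libraries, and Mapk13 stays at or below 0.439 CPM.

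Libraries held between 12784960 and 19604103 counts. One library stood apart: MET+LEU replicate 6 had 5.85% of its counts on nuclear rRNA genes and 7.64% on mitochondrial rRNA genes, where the others had up to 1.96% and 0.760%, and a TMM factor of 0.803 where the others had 0.968 to 1.03. The 10 genes made up 0.0216% of its counts and 0.0322% to 0.0385% of the others. For the tested genes among the 10, fold changes in MET+LEU vs. SD and vs. 2% HS are therefore given with and without it. Values of all other genes are given only with it. The other 5 MET+LEU libraries also stood apart from SD, with no overlap: mitochondrial rRNA took 0.649% to 0.760% of their counts against 0.282% to 0.367% in SD, their TMM factors were 0.968 to 0.985 against 1.002 to 1.027, and the 10 genes took 0.0322% to 0.0355% against 0.0358% to 0.0385%. Mitochondrial rRNA was also above the SD range in LEU (0.501% to 0.710%) and in MET (0.429% to 0.705%) except MET replicate 2 (0.244%). The part of these shares in MET vs. SD and LEU vs. SD was not tested. The myotube label was checked against its markers: the sum of Myog, Ckm, Acta1, Ttn, Myh3 and Mymk was 25780 to 39090 CPM over the 30 libraries, and all 6 were detected in each group. Endothelial (Pecam1, Cdh5) and adipocyte (Adipoq, Plin1) markers summed to at most 0.769 and 0.229 CPM, and macrophage markers (Ptprc, Adgre1, Cd68) to at most 3.71 CPM.

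SD vs. 2% HS asks what loss of serum does to myotubes. Of the 9 genes tested, 5 changed: Map2k3, Rps6ka4 and Mapk14 rose, and Rps6ka5 and Mapk12 fell. This is 3 genes higher and 2 lower, in a comparison in which 27.8% of all genes tested passed the same threshold (edgeR quasi-likelihood F test, adjusted p under 0.05), 13.9% of them higher and 13.9% lower. Related genes thus went opposite ways: Mapk14 against Mapk12, isoform genes that are not neighbours, and Rps6ka4 against Rps6ka5. In each of the 5 genes the 6 SD libraries did not overlap the 6 libraries in 2% HS, which was the case for 13.6% of all genes tested. The log2 fold change was positive for 5 of the 9 genes and negative for 4. Their median was 0.15, against 0.0028 over all genes, and is the value of Mapkapk2, which did not pass.

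Rps6ka5, the MSK1 gene, had the largest called change of the 9. Its level was 16.9 to 20.3 CPM in 2% HS (median 19.4) and 10.3 to 13.5 CPM in SD (median 11.9). Every SD library was below every 2% HS library. The log2 fold change was -0.69 ± 0.079 (SE), a decrease to 0.622-fold, with an adjusted p of 1.34e-09. Mapk12, the p38γ gene, had 49.3 to 53.6 CPM in 2% HS (median 51.2) and 36.6 to 44.4 CPM in SD (median 40.0). The lowest 2% HS library stood above the highest SD library. Its log2 fold change was -0.35 ± 0.053, with an adjusted p of 7.49e-07.

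Among the genes that rose, Map2k3, which encodes the activator MKK3, moved most. It had 57.8 to 68.1 CPM in 2% HS (median 64.6) and 75.8 to 91.6 CPM in SD (median 80.4), a log2 fold change of 0.36 ± 0.051 and an adjusted p of 1.81e-07. All 6 SD libraries were above the 2% HS range. Mapk14, the p38α gene, had 49.1 to 54.2 CPM in 2% HS (median 51.9) and 54.8 to 61.2 CPM in SD (median 58.9). The log2 fold change was 0.18 ± 0.047, with an adjusted p of 0.0032, and the gap between the groups was narrow. Rps6ka4, the MSK2 gene, had 20.5 to 23.6 CPM in 2% HS (median 21.4) and 23.7 to 26.1 CPM in SD (median 25.1). Its log2 fold change was 0.20 ± 0.058 with an adjusted p of 0.00589. Rps6ka4 has the highest GC content of the 10 genes (60.3%), and with an offset for GC content its log2 fold change was 0.16 with an adjusted p of 0.0557.

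The remaining 4 tested genes did not pass. Mapkapk2, the MK2 gene, had 120 to 134 CPM in 2% HS and 130 to 147 CPM in SD, with 4 of 6 SD libraries above the 2% HS range and an adjusted p of 0.104. The log2 fold change was 0.15 ± 0.066. In a model without MET+LEU replicate 6 it was 0.15 ± 0.039 with an adjusted p of 0.00241. Mapkapk3, the MK3 gene, had 2.54 to 4.17 CPM in 2% HS and 1.64 to 2.68 CPM in SD, a log2 fold change of -0.41 ± 0.17 and an adjusted p of 0.0597. In that same model the adjusted p of Mapkapk3 was 0.0474, and without 2% HS replicate 1 or without SD replicate 4 it was 0.0439 and 0.0484. Mapk11 gave a log2 fold change of 0.21 ± 0.12 with an adjusted p of 0.22. Map2k6 gave -0.10 ± 0.22 with an adjusted p of 0.791, and its 95% interval ran from -0.53 to 0.34.

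**Figure D2:**
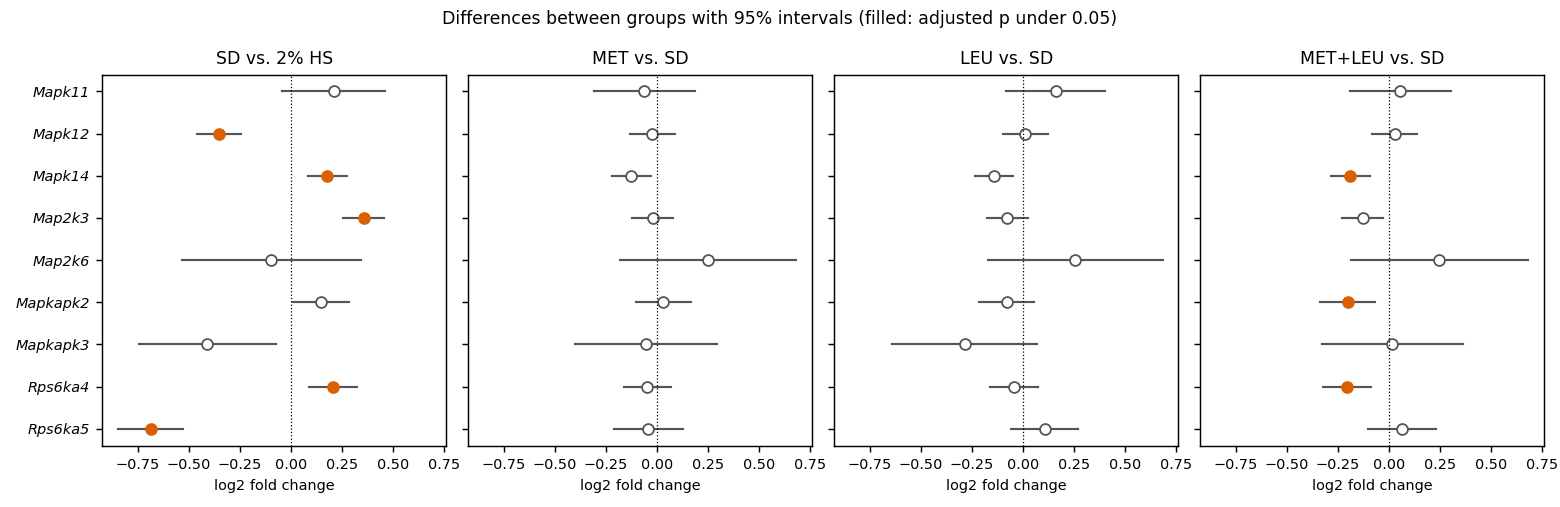
Log2 fold change (x axis) of the 9 tested genes in 4 comparisons, with 95% intervals from edgeR's quasi-likelihood fit; filled points passed an adjusted p under 0.05. In SD vs. 2% HS 5 points are filled on both sides of 0, none in MET or LEU vs. SD, and 3 in MET+LEU vs. SD, all below 0.

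Because these are counts on whole cultures, fewer cells of a type and less RNA per cell cannot be told apart. The summed level of the 6 myotube markers was 36000 to 39090 CPM in 2% HS and 29380 to 31690 CPM in SD. Most of the sum was Ttn, with a mean of 30930 CPM in 2% HS and 24560 CPM in SD. Ckm and Ttn were the 2 of 6 that passed the test, both lower. The log2 fold changes of the others were -0.10 (Acta1), -0.11 (Mymk), 0.05 (Myog) and 0.08 (Myh3). The cycling or unfused myoblast list (Pax7, Myf5, Mki67, Top2a, Cdk1, Ccnb1) summed to 356 to 383 CPM in 2% HS and 316 to 357 CPM in SD, and of its 6 genes only Pax7 passed, lower. The fibroblast list (Pdgfra, Thy1, Dpt) summed to 13.5 to 17.2 CPM in 2% HS and 57.0 to 69.6 CPM in SD, with Pdgfra and Dpt higher and Thy1 not tested. The part of these markers in the p38 gene results was not tested.

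Since Mapk14 and Mapk12 went opposite ways in SD vs. 2% HS, the makeup of the pool of p38 transcripts differed between the groups. Per length, and over the 4 isoforms, Mapk12 made up 50.01% ± 0.706 (SD, n = 6) of p38 transcripts in 2% HS and 40.8% ± 2.25 in SD. Mapk14 made up 43.8% ± 0.439 in 2% HS and 51.7% ± 1.81 in SD. The share of Mapk12 in the other groups without serum was 42.4% ± 1.33 (MET), 42.8% ± 1.04 (LEU) and 44.0% ± 1.88 (MET+LEU), closer to SD than to 2% HS. Mapk11 took 6.09% to 8.49% in the 5 groups and Mapk13 at most 0.269%. The ratio of Mapk12 to Mapk14 was 1.12 to 1.17 in the 6 libraries in 2% HS and 0.688 to 1.03 in the 24 libraries without serum. The ratio of Rps6ka4 to Rps6ka5 was 3.44 to 4.64 in 2% HS and 5.85 to 8.09 in SD. The size of this ratio depends on the length used, and its being higher in SD does not. These shares and ratios are descriptions, built from the members tested above. With the longest transcript as the length in place of merged exons, the share of Mapk12 was 62.1% in 2% HS and 53.0% in SD, so which isoform leads depends on the length used, and its lower share in SD does not.

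**Figure D3:**
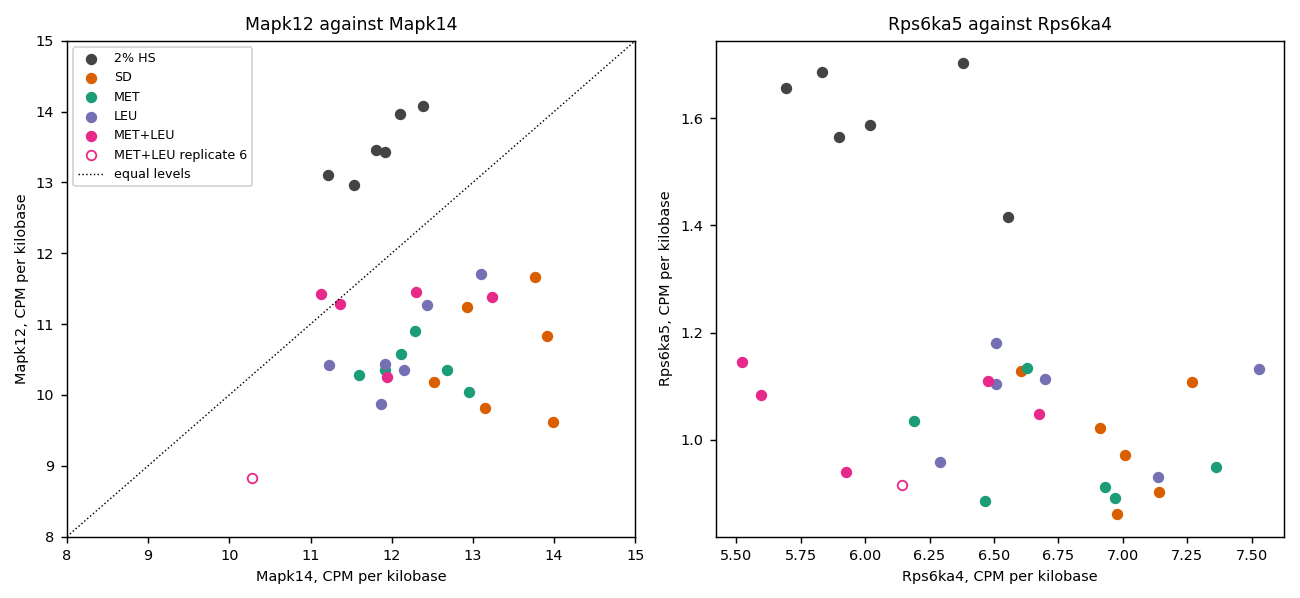
Left, Mapk12 against Mapk14, and right, Rps6ka5 against Rps6ka4, both in CPM per kilobase of merged exons, 1 point a library and 1 colour a group; the dotted line marks equal levels and axes do not start at 0. The 6 libraries in 2% HS lie above the line on the left, with 1.12 to 1.17 times as much Mapk12 as Mapk14, and stand apart at the top on the right.

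Mapk12 and Rps6ka5, the 2 genes that fell, lie on different chromosomes. Their upstream sequences are shown because both moved the same way with serum. Each is the 250 bases before the RefSeq start (GRCm38.p6), 5′ to 3′ on the gene's strand, with matches to the E-box (CANNTG) and the GC box (GGGCGG), searched on both strands, in capitals. Mapk12 is at chr15:89140704-89140953 and Rps6ka5 at chr12:100725121-100725370, both on the minus strand.
Mapk12: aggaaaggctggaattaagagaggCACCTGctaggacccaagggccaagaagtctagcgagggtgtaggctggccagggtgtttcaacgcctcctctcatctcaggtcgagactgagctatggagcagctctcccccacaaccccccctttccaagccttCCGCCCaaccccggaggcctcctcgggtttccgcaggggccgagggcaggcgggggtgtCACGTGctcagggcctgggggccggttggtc
Rps6ka5: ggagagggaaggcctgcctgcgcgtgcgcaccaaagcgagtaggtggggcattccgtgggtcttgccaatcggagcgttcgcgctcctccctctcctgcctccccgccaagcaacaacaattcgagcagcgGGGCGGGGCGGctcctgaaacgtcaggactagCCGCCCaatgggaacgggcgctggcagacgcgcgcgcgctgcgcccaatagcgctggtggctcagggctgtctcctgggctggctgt
E-boxes are sites that bHLH factors can bind, the myogenic ones among them, and GC boxes those of Sp-family factors. A match to CANNTG does not tell which bHLH factor could bind. Mapk12 held 2 E-boxes (CACCTG and CACGTG) and 1 GC box, and Rps6ka5 held 0 E-boxes and 3 GC boxes, of which 2 overlap. An E-box was present in 66.2% and a GC box in 32.7% of 32851 mouse promoters of the same length. All 10 members had an entry, 14 in all, of which 9 held an E-box and 8 a GC box. A match describes letters and is not a measured binding site.

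MET vs. SD and LEU vs. SD ask what each agent did alone. None of the 9 genes passed in MET vs. SD, where 0.157% of all genes did, or in LEU vs. SD, where 0.553% did. DESeq2 and limma-voom called 0 of the 9 as well in both. At an unadjusted p under 0.05 the count was 1 in each, against 10% and 9.98% of all genes, and it was Mapk14 both times. Mapk14 had 50.8 to 56.7 CPM in MET, 49.1 to 57.3 CPM in LEU and 54.8 to 61.2 CPM in SD. Its log2 fold change was -0.13 ± 0.047 in MET (adjusted p = 0.325) and -0.14 ± 0.047 in LEU (adjusted p = 0.191). For Mapk12 the 95% interval ran from -0.13 to 0.09 in MET and from -0.10 to 0.12 in LEU, and for Rps6ka5 from -0.21 to 0.13 and from -0.06 to 0.27. The intervals of Map2k3 ran from -0.12 to 0.08 and from -0.18 to 0.02. Changes of the size seen in SD vs. 2% HS, in either direction, lie outside these intervals for all 3 genes. The log2 fold changes of Mapk11, Map2k6, Mapkapk2, Mapkapk3 and Rps6ka4 were between -0.06 (Mapk11) and 0.25 (Map2k6) in MET and between -0.28 (Mapkapk3) and 0.26 (Map2k6) in LEU.

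MET+LEU vs. SD asks what the agents did together. Of the 9 genes, 3 passed and all were lower: Mapk14, Rps6ka4 and Mapkapk2. Among all genes tested 18.4% passed, 10.6% higher and 7.8% lower. The libraries of the groups overlapped for each of the 3, while 5.36% of all genes had none overlapping. Mapk14 and Rps6ka4 were among the genes that rose in SD vs. 2% HS, and both comparisons use the same SD libraries.

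Mapk14 had 44.99 to 57.9 CPM in MET+LEU (median 51.0) and 54.8 to 61.2 CPM in SD (median 58.9), and 5 of 6 MET+LEU libraries were below the SD range. The log2 fold change was -0.19 ± 0.047, with an adjusted p of 0.0032, and -0.16 ± 0.045 with an adjusted p of 0.0114 without MET+LEU replicate 6. Rps6ka4 had 19.9 to 23.99 CPM in MET+LEU (median 21.7) and 23.7 to 26.1 CPM in SD (median 25.1), again with 5 of 6 libraries below the SD range. Its log2 fold change was -0.21 ± 0.058 with an adjusted p of 0.00942, and -0.21 with an adjusted p of 0.0126 without that library. With the offset for GC content the fold change of Rps6ka4 was -0.09 and its adjusted p 0.373.

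Mapkapk2 had 86.5 to 139 CPM in MET+LEU (median 126) and 130 to 147 CPM in SD (median 143). The lowest value was that of MET+LEU replicate 6, and 4 of 6 libraries were below the SD range. The log2 fold change was -0.20 ± 0.066 with an adjusted p of 0.032. Without MET+LEU replicate 6 it was -0.13 ± 0.041 with an adjusted p of 0.0303. The GC content of Mapkapk2 is 57.6%. Its call was lost with the GC offset, where the log2 fold change was -0.12 (adjusted p = 0.0809). It was also lost at a log2 fold change of -0.21 in a model of only SD and MET+LEU (adjusted p = 0.164), and at -0.20 to -0.19 when SD replicate 1, 2, 3 or 6 or MET+LEU replicate 5 was left out (adjusted p of 0.0537 to 0.0807).

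Map2k3 had 63.6 to 81.8 CPM in MET+LEU and 75.8 to 91.6 CPM in SD, a log2 fold change of -0.13 ± 0.050 and an adjusted p of 0.0679. Map2k3 passed without SD replicate 5 or 6 or without MET+LEU replicate 4 (0.0246 to 0.0486), and without MET+LEU replicate 6 its log2 fold change was -0.09 with an adjusted p of 0.207. The genes that fell in SD vs. 2% HS gave 0.03 ± 0.054 (Mapk12, adjusted p = 0.778) and 0.06 ± 0.083 (Rps6ka5, adjusted p = 0.648). Their 95% intervals, -0.08 to 0.14 and -0.10 to 0.23, do not reach the size of their decrease in SD. Mapk11 gave 0.06 ± 0.12, Map2k6 0.25 ± 0.21 and Mapkapk3 0.02 ± 0.17, with adjusted p of 0.469 or more. Without MET+LEU replicate 6 the log2 fold changes were 0.07 for Mapk12, 0.09 for Rps6ka5, 0.07 for Mapk11, 0.32 for Map2k6 and 0.11 for Mapkapk3, with adjusted p of 0.368 or more. The cycling or unfused myoblast list moved with this comparison: it summed to 274 to 300 CPM in MET+LEU and 316 to 357 CPM in SD, with Mki67, Top2a, Cdk1 and Ccnb1 lower. The myotube sum was 27230 to 35320 CPM in MET+LEU, which spans the SD range, with Myh3 higher, and the fibroblast sum was 62.3 to 70.9 CPM. The part of these markers, and of the rRNA shares and TMM factors given above for MET+LEU, in the result was not tested.

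MET+LEU vs. 2% HS sets the treated cultures against those with serum. Of the 9 genes, 3 passed, in a comparison in which 42.3% of all genes did. Mapk12 (-0.32 ± 0.053, adjusted p = 2.43e-06) and Rps6ka5 (-0.62 ± 0.079, adjusted p = 1.02e-08) were lower, and Map2k3 (0.23 ± 0.051, adjusted p = 0.000274) was higher. Mapk14 differed from 2% HS by -0.01 (95% interval -0.11 to 0.08) and Rps6ka4 by -0.00134 (-0.12 to 0.12). Mapkapk2 differed by -0.06 (-0.19 to 0.08). Mapk11 (0.27 ± 0.12, adjusted p = 0.0808), Mapkapk3 (-0.39 ± 0.17, adjusted p = 0.0526) and Map2k6 (0.15 ± 0.21, adjusted p = 0.6) did not pass. Mapk11 and Mapkapk3 both passed, which made 5 of 9, when 2% HS replicate 1 or MET+LEU replicate 2 was left out (adjusted p of 0.029 to 0.0458), and Mapkapk3 also without MET+LEU replicate 4 (0.0474). Without MET+LEU replicate 6 the difference of Mapkapk3 from 2% HS was -0.29 (adjusted p = 0.157), those of Mapk14 and Mapkapk2 were 0.02 each, and that of Rps6ka4 was -0.0067. The called genes then gave -0.28 (Mapk12), -0.59 (Rps6ka5) and 0.27 (Map2k3), all past the threshold, and Mapk11 gave 0.28 and Map2k6 0.23, neither past it.

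The combination was also compared with each agent alone. In MET+LEU vs. MET 1 of 9 passed, against 8.69% of all genes: Mapkapk2 was lower, with a log2 fold change of -0.23 ± 0.066 (adjusted p = 0.0267), and of -0.16 without MET+LEU replicate 6 (adjusted p = 0.0131). Its call was lost without MET replicate 1, 3 or 4 (0.052 to 0.055) and in a model of only MET and MET+LEU (0.186). Rps6ka4 also passed there without MET+LEU replicate 5 (adjusted p = 0.0371). The other 8 lay between -0.16 (Rps6ka4) and 0.12 (Mapk11). In MET+LEU vs. LEU 0 of 9 passed, against 6.28% of all genes. At an unadjusted p under 0.05 it was 1 gene, Rps6ka4, against 21.5% of all genes, and DESeq2 called 0 and limma-voom 1, also Rps6ka4, which passed in edgeR without MET+LEU replicate 5 (adjusted p = 0.0403). The 9 log2 fold changes lay between -0.16 (Rps6ka4) and 0.30 (Mapkapk3). The test of the interaction of MET and LEU called 0 of the 9, against 0.0503% of all genes, and 0 at an unadjusted p under 0.05, against 8.73%. DESeq2 and limma-voom called 0 for the interaction, and its log2 values lay between -0.26 (Map2k6) and 0.35 (Mapkapk3). For Mapk14 the difference between MET+LEU and MET was -0.06 ± 0.047 and between MET+LEU and LEU -0.05 ± 0.047 (adjusted p = 0.442 and 0.613), so its decrease is not shown to be particular to the combination.

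The 49 other genes of the pathway, in 5 lists by role, held 48 genes with enough counts. Their values in MET+LEU all include MET+LEU replicate 6. In SD vs. 2% HS 7 were higher and 9 lower (33.3% of 48, against 27.8% of all genes), and in MET+LEU vs. SD 6 were higher and 4 lower (20.8%, against 18.4% of all genes). In MET and in LEU vs. SD 0 of the 48 passed, against 0.157% and 0.553% of all genes. A comparison list held 18 other MAP kinase route genes, those of the ERK, JNK and ERK5 routes among them, and 16 were tested. It had 1 higher and 3 lower in SD vs. 2% HS and 1 higher and 2 lower in MET+LEU vs. SD.

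Upstream of p38, 6 of 16 MAP3Ks and their partners rose in SD vs. 2% HS and 1 fell, where 13.9% of all genes rose and 13.9% fell, with a median log2 fold change of 0.05 over the list. Map3k5 (ASK1, a kinase of the oxidative stress response) rose by 0.99 ± 0.36 (adjusted p = 0.0331). It is a gene of low level here, with 0.0769 to 0.632 CPM in 2% HS and 0.624 to 0.922 CPM in SD. Gadd45g, which binds and activates the MAP3K Map3k4, rose by 0.62 ± 0.065 (adjusted p = 1.3e-10), and its 28.5 to 30.4 CPM in 2% HS did not overlap the 36.7 to 49.8 CPM in SD. Map3k6 (ASK2) rose by 0.49 ± 0.11 (adjusted p = 0.000499). In MET+LEU vs. SD the related Gadd45a rose by 0.30 ± 0.057 (adjusted p = 0.000248), with 109 to 142 CPM in SD and 140 to 170 CPM in MET+LEU. Of 5 tested scaffolds and muscle partners, 2 fell in SD, against 13.9% of all genes, and 2 rose in MET+LEU vs. SD, against 10.6%. One of the latter was Bnip2, which with the receptor Cdon scaffolds p38 signalling in myoblasts. It had 114 to 125 CPM in SD and 134 to 180 CPM in MET+LEU with no overlap, a log2 fold change of 0.32 ± 0.043 (adjusted p = 8.8e-07).

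Of 7 phosphatases that can switch p38 off, 1 rose and 0 fell in SD vs. 2% HS, against 13.9% of all genes each way. Set against SD, MET+LEU had 1 higher and 1 lower, where 10.6% of all genes were higher and 7.8% lower. The lower gene, Dusp1 (MKP-1), was named after its values were seen: it had 55.1 to 60.4 CPM in SD and 45.7 to 57.2 CPM in MET+LEU, a log2 fold change of -0.18 ± 0.046 (adjusted p = 0.0054). By mean CPM, Dusp8 was also lower in MET+LEU than in SD, and Dusp10, Dusp16, Ppm1a, Ppm1b and Ppm1d were higher. Ppm1b had 82.2 to 92.9 CPM in SD and 91.8 to 96.5 CPM in MET+LEU.

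Of 8 further downstream kinases and RNA-binding or small heat shock substrates, 1 fell in SD vs. 2% HS and 0 passed in MET+LEU vs. SD. Of all genes, 13.9% fell in the first comparison and 18.4% passed in the second. Among the 12 transcription factor and chromatin substrates, 0 rose and 5 fell in SD vs. 2% HS, where 13.9% of all genes fell. Ppargc1a, the coactivator of mitochondrial biogenesis, fell by 1.14 ± 0.13 on the log2 scale (adjusted p = 3.14e-10). It had 7.38 to 10.2 CPM in 2% HS and 3.52 to 4.05 CPM in SD, with no overlap. Ddit3 (CHOP) fell by 0.46 ± 0.096 (adjusted p = 0.000196). In MET+LEU vs. SD 1 rose and 2 fell, against 10.6% and 7.8% of all genes. Tcf3, an E-protein that p38 phosphorylates in myoblasts, had 66.9 to 82.8 CPM in SD and 52.6 to 65.7 CPM in MET+LEU, a log2 fold change of -0.24 ± 0.051 (adjusted p = 0.000501). Mef2c, a MEF2 factor and p38 substrate named after its values were seen, had 763 to 868 CPM in SD and 919 to 1024 CPM in MET+LEU, a log2 fold change of 0.24 ± 0.041 (adjusted p = 3.33e-05). The groups did not overlap for either gene, which was the case for 5.36% of all genes tested. Of the other MEF2 factors, Mef2d had 335 to 381 CPM in SD and 330 to 338 CPM in MET+LEU. Mef2a had 608 to 698 CPM in SD and 636 to 776 CPM in MET+LEU. The groups overlapped for Mef2d and for Mef2a.

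**Figure D4:**
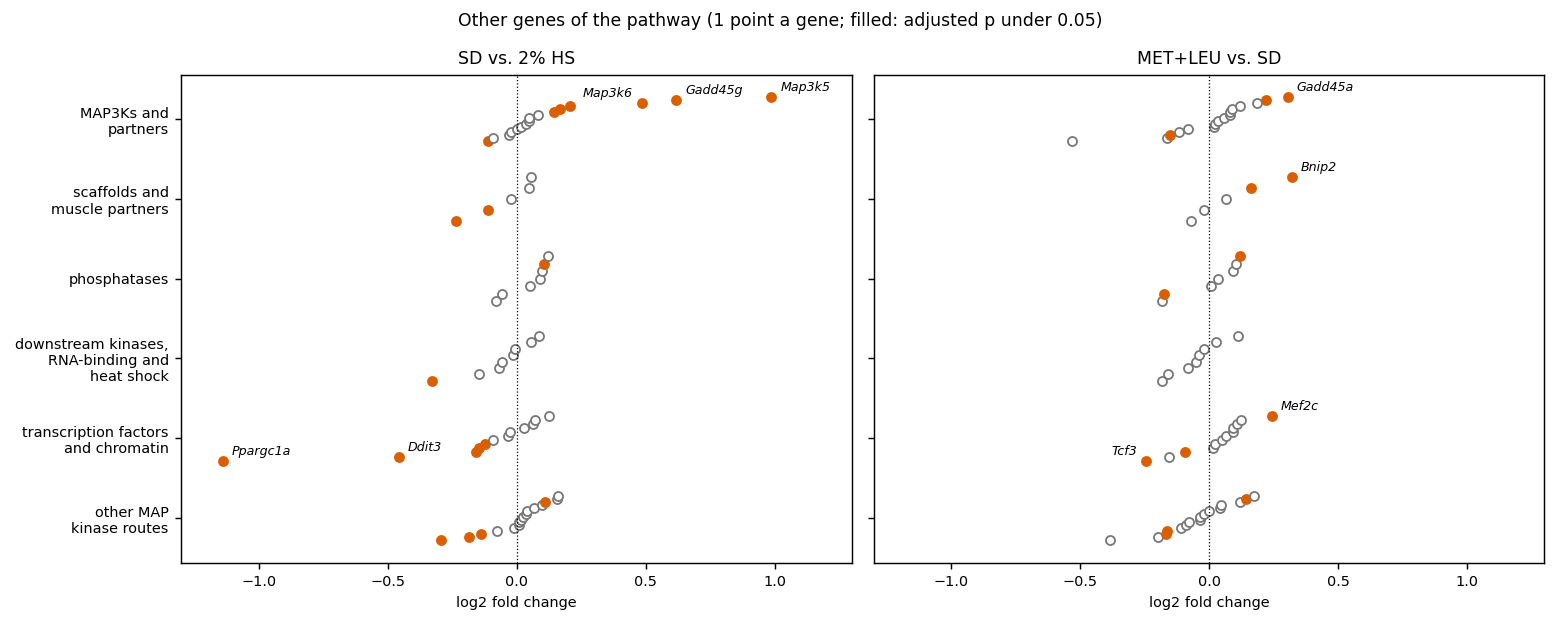
Log2 fold change (x axis) of the other genes of the pathway, 1 point a gene, by list (y axis), in SD vs. 2% HS (left) and MET+LEU vs. SD (right). Filled points passed an adjusted p under 0.05, and genes given with values in the text are named, except Dusp1, Ppm1b, Mef2a and Mef2d. In SD vs. 2% HS the 6 MAP3K genes that rose lie right of 0 and the 5 transcription factor genes that fell lie left of it.

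Over the 30 libraries, the genes whose log2 CPM followed Mapk12 most closely among 12697 candidates were Sema6c (r = 0.927), Art1 (r = 0.924) and Fgfrl1 (r = 0.91). With group means removed the r of these 3 with Mapk12 were 0.783, 0.729 and 0.712. For Mapk14 they were Plekhb2 (r = 0.816), Ptch1 (r = 0.815) and Mfsd10 (r = 0.763), and 0.659, 0.78 and 0.628 with group means removed. Among the members themselves, Mapk12 and Rps6ka5 had r = 0.742 over the 30 libraries and -0.102 with group means removed. Mapk12 and Mapk14, which moved apart between groups, had r = -0.0348 and 0.515. Values in a library share its scaling, and MET+LEU replicate 6 is low for most members, so these correlations are descriptions.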

How the data were processed

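RNA-seq of 30 libraries of C2C12 myotubes was analysed, 6 in each of 5 groups taken from the labels. The authors deposited raw counts per gene, whole numbers with no normalization, from stranded rRNA-depleted libraries. The submitters' processing notes name cutadapt 1.16, STAR 2.7.6a, featureCounts 1.6.3, DESeq2 1.30.1 and the build GRCm38. The strand setting of the counting and the treatment of reads with several matches are not given in the sources used here. Of 55487 gene identifiers, 55227 matched GENCODE M21, which gave exon lengths and GC content. Merged exons per gene were used as the length.

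From the counts, edgeR 4.0.16 (R 4.3.3) was run on all 30 libraries with filterByExpr (minimum count 10, minimum total 15), TMM factors and a robust quasi-likelihood fit, with Benjamini-Hochberg adjustment over 15907 genes and a threshold of 0.05. SE is the size of the log2 fold change divided by the square root of F, and intervals are at 95%. Library totals of 12784960 to 19604103 counts set the precision, and the limit of 3 counts for a count of 0 covers counting error only. The scripts were tested on simulated data. DESeq2 1.42.0, limma 3.58.1 (voom with quality weights), other scalings and filters, a GC offset, a replicate block, models of only the groups compared and leaving out each library were the alternatives.

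The 10 members were named by rule, in some comparisons partly by the range of their values. Genes of the wider lists were named where they passed the threshold and were among the 5 largest changes of all lists in SD vs. 2% HS or MET+LEU vs. SD, and the 3 genes most alike were named for Mapk12 and Mapk14. Dusp1 and Mef2c were instead named after their values were seen, and the other phosphatases and MEF2 factors were named beside them. The members and lists were chosen with earlier results of these data known.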

Additional observations from a re-analysis of the deposited data

Results flagged for a closer look

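In 4 of 50 sets of 6 libraries (a gene in a group), the highest or lowest library lay further from the nearest of the others than Dixon's 95% critical value for 6 samples allows. Chance flags about 1 in 20 such sets. Mapk13 had 0.344 CPM in MET+LEU replicate 4, where the next value was 0.113 CPM (gap 0.672 of the range). Mapkapk2 had 129 CPM in MET replicate 6, below the next value of 144 CPM (gap 0.774). Mapkapk3 had 4.17 CPM in 2% HS replicate 3, where the next value was 3.01 CPM (gap 0.709), and 3.10 CPM in MET replicate 4, where the next was 2.20 CPM (gap 0.70).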

How the results depend on the processing

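Called members gave 276 values under the alternatives, of which 263 stayed past the threshold in the same direction, 13 did not pass and 0 turned. Members that were not called gave 1488 values, of which 30 passed and 75 turned, 0 of them past the threshold. In comparisons that hold MET+LEU, these totals count the fit without MET+LEU replicate 6 both as a left-out library and as a model of its own. The cause of each change was not tested.

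With the GC offset the count of p38 genes called in MET+LEU vs. SD was 1, and the log2 fold change turned for Mapk12 (0.0051) and Map2k3 (0.0021) in MET vs. SD and for Rps6ka4 (0.0682) in MET+LEU vs. 2% HS. The interaction of Rps6ka5 turned with the GC offset (-0.0259), DESeq2 size factors (-0.0114), the DESeq2 test (-0.0130), upper-quartile scaling (-0.0202), no filter (-0.0136), at least 10 counts in every library (-0.0048) and only the groups compared (-0.0121). With upper-quartile scaling Mapk12 in MET+LEU vs. LEU was -0.0042. With limma-voom, Mapk14 in MET+LEU vs. 2% HS was 0.0038, Map2k6 in MET+LEU vs. MET and vs. LEU was 0.0682 and 0.0808, and the counts in MET+LEU vs. MET and vs. LEU were 2 and 1. The count in MET+LEU vs. MET was 0 in a model of only the groups compared and 0 at a threshold of 0.01. In a model without MET+LEU replicate 6, Mapk14 and Mapkapk2 in MET+LEU vs. 2% HS were 0.0184 and 0.0215, Map2k6 in MET+LEU vs. MET and vs. LEU was 0.0704 and 0.0648, the interaction of Map2k3 was 0.0052, and 7 p38 genes were called in SD vs. 2% HS, Mapkapk2 and Mapkapk3 being added.

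Leaving out each library of the groups compared in turn, the number of p38 genes called was 5 to 6 in SD vs. 2% HS, 2 to 4 in MET+LEU vs. SD, 3 to 5 in MET+LEU vs. 2% HS, 0 to 2 in MET+LEU vs. MET, 0 to 1 in MET+LEU vs. LEU, and 0 in MET vs. SD, in LEU vs. SD and for the interaction. The log2 fold changes that turned ran from -0.180 to 0.0757 for Map2k6 in SD vs. 2% HS. In MET vs. SD they ran from -0.113 to 0.0208 for Mapk11, -0.0472 to 0.0092 for Mapk12 and -0.0429 to 0.0124 for Map2k3. In LEU vs. SD Mapk12 ran from -0.0161 to 0.0439, and in MET+LEU vs. SD Mapkapk3 from -0.0595 to 0.114. In MET+LEU vs. 2% HS they ran from -0.0495 to 0.0184 for Mapk14, -0.0965 to 0.0215 for Mapkapk2 and -0.0367 to 0.0232 for Rps6ka4. In MET+LEU vs. MET they ran from -0.0786 to 0.0704 for Map2k6 and -0.0053 to 0.192 for Mapkapk3, and in MET+LEU vs. LEU from -0.122 to 0.101 for Map2k6 and -0.0114 to 0.0573 for Mapk12. The interaction ran from -0.0686 to 0.0052 for Map2k3, -0.124 to 0.0363 for Mapk11 and -0.0372 to 0.0511 for Rps6ka5.

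With the longest transcript as length, the per-length shares of p38 transcripts in 2% HS, SD, MET, LEU and MET+LEU were 62.1%, 53.0%, 54.7%, 55.1% and 56.3% for Mapk12, 33.6%, 41.5%, 39.8%, 38.6% and 37.9% for Mapk14, and 4.23%, 5.34%, 5.34%, 6.12% and 5.79% for Mapk11.

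Same-numbered libraries of different groups had a mean correlation of deviations of 0.0157 (-0.0913 to 0.142 over 60 pairs). For libraries of different numbers it was -0.00314. The labels do not say whether same-numbered libraries were handled together, and these correlations cannot decide it. With the replicate block 4 p38 genes were called in MET+LEU vs. SD and 5 in SD vs. 2% HS, Map2k3 being added to the former (adjusted p = 0.0499), and 3113 and 4498 of all genes. Depth limits Mapk13, Map2k6 and Mapkapk3, whose counts are low.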
